A study of Mus musculus with 4 samples.

Results

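T and NK cells are the lymphocytes found here among cells that had been sorted from the adult mouse prostate as live and EPCAM+, a sort intended for epithelium. They were chosen by their own UMIs (unique molecular identifiers, each standing for 1 captured transcript). A cell entered if it had 750 to 7500 detected genes, under 10% mitochondrial UMIs, at least 1 UMI of *Ptprc*, the pan-leukocyte phosphatase CD45, and at least 2 UMIs summed over *Cd3d*, *Cd3e*, *Cd3g* and *Nkg7*. This gave 92 T and NK cells of 8533 adult cells within the limits, 15 of 1892 in run 1, 76 of 4398 in run 2 and 1 of 2243 in run 3. The same rule found 0 of 6608 cells in cultured explants of the embryonic urogenital sinus, which allows a share of up to 0.0454% (here and below, the limit for a count of 0 is 3 cells of the total).

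The adult libraries came from P2-Runx1:RFP mice on the ICR (CD-1) strain, older than 8 weeks. In these mice red fluorescent protein (RFP) is driven by the proximal P2 promoter of *Runx1*. All animals of both treatments carried this reporter. Intact mice were used in all 3 runs, and mice castrated for more than 4 weeks in runs 1 and 2. EPCAM+ cells were sorted as RFP+ and RFP- from 3 lobes of pooled animals, the anterior (AP), ventral (VP) and dorsolateral (DLP), and each sorted population received its own MULTI-seq barcode before all were loaded together. In run 1 the castrated lobes were pooled, and by the methods the labelling of intact DLP RFP+ cells failed in runs 1 and 2. Since the mice of a run were pooled, the run is the replicate, and cells of 1 run are not.

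T cells recognise antigen through an αβ or γδ receptor that signals through the CD3 chains, with CD4 and CD8 as co-receptors that divide helper from cytotoxic αβ cells. NK cells lack CD3, read activating and inhibitory receptors instead, and kill through granzymes and perforin. Lymphocytes that settle in an epithelium, among them CD8, γδ and innate-like cells, often carry residency molecules such as CD69 and CD103 and can sit between the epithelial cells.

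A sorted population is read from the MULTI-seq oligonucleotide anchored on the surface of each cell, and both oligonucleotides that matter most for these lymphocytes are shown as used in runs 1 and 2 (run 3 used others). The AP RFP+ barcode marked the largest labelled group of T cells in run 2, and the DLP RFP+ barcode is the one whose labelling failed, so that a cell from that fraction cannot be told from an unlabelled one. Capitals mark the 8 barcode bases, which begin at base 22 of 59, after a primer site and before the poly(A) capture tail.
Intact AP RFP+, runs 1 and 2: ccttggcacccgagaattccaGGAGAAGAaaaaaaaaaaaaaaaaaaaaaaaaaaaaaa
Intact DLP RFP+, runs 1 and 2: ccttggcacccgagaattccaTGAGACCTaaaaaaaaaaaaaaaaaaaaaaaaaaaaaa

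The rule was checked against the markers of other cell types. Within the 92 cells, *C1qa*, *C1qb* and *Csf1r* of macrophages and *Cd79a* and *Ms4a1* of B cells were at 0 UMIs, as were *Cpa3* and *Mcpt4* of mast cells. *Lyz2* was found in 4 cells with 22 UMIs in all. *Epcam* itself, which the sort should have selected, had a UMI in 21 of the 92 cells, and 6 cells had 5 or more *Epcam* UMIs. The members just inside the rule were 3 cells with a sum of exactly 2, all in run 2, and the other 89 had sums of 3 to 46 with a median of 9. Just outside were 11 cells with *Ptprc* and a sum of 1, whose median of 19076 UMIs and *Epcam* UMIs in 10 of 11 set them apart from the members. A further 108 cells had a sum of 2 or more without *Ptprc*, and in 96 of them the only rule gene seen was *Cd3e*. *Cd3e* had a UMI in 4.82% of the epithelial cells of run 2, and 3 members of that run, each with 5 or more *Epcam* UMIs, entered on *Cd3e* alone. The other 89 members had a UMI of *Cd3d*, *Cd3g* or *Nkg7*.

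T and NK cells were small libraries. Their median was 4152 UMIs in run 1 and 3244.5 in run 2, against 10770.5 and 10498 over all cells of the same runs and 13307 and 12129 in epithelial cells (*Epcam* at least 1 UMI, *Ptprc* at 0). Across the 92 cells the total ran from 1648 to 48192 UMIs, and 11 cells had more than 10000. Of these 11 cells, 5 had 20 to 57 *Epcam* and 38 to 107 keratin UMIs, and 5 others had 42 to 70 UMIs of proliferation genes in place of keratin, the last being the run 3 cell with 28 keratin UMIs. No doublet caller was applied, and whether the cells rich in both lymphocyte and keratin UMIs were 1 cell or a pair was not tested. Pairs of runs shared 0 to 3 cell barcodes, none among T and NK cells. No confidence interval in this text covers more than counting error.

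The share of T and NK cells differed widely between runs. It was 0.793% in run 1 (95% Wilson interval 0.481 to 1.30), 1.73% in run 2 (1.38 to 2.16) and 0.0446% in run 3 (0.00787 to 0.252). No pair of these intervals overlapped. Leukocytes as a whole followed the same order, with 150, 558 and 3 cells that had a *Ptprc* UMI, of which 121, 398 and 1 were myeloid by their own rule (*Ptprc* and at least 2 UMIs of *Lyz2*, *C1qa*, *C1qb*, *Csf1r* and *Cd68*). T and NK cells made up 10% of the *Ptprc* cells of run 1 and 13.6% of those of run 2. This share counts cells with and without a barcode call, and the treatment of a cell without a call is not known. Castrated mice were in runs 1 and 2 only and the pools of animals differed, so run and batch cannot be told apart. Over all cells of a run, treatment cannot be separated from run and batch either. Among cells with a call the barcode gives the treatment, and those shares follow by population.

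**Figure D1:**
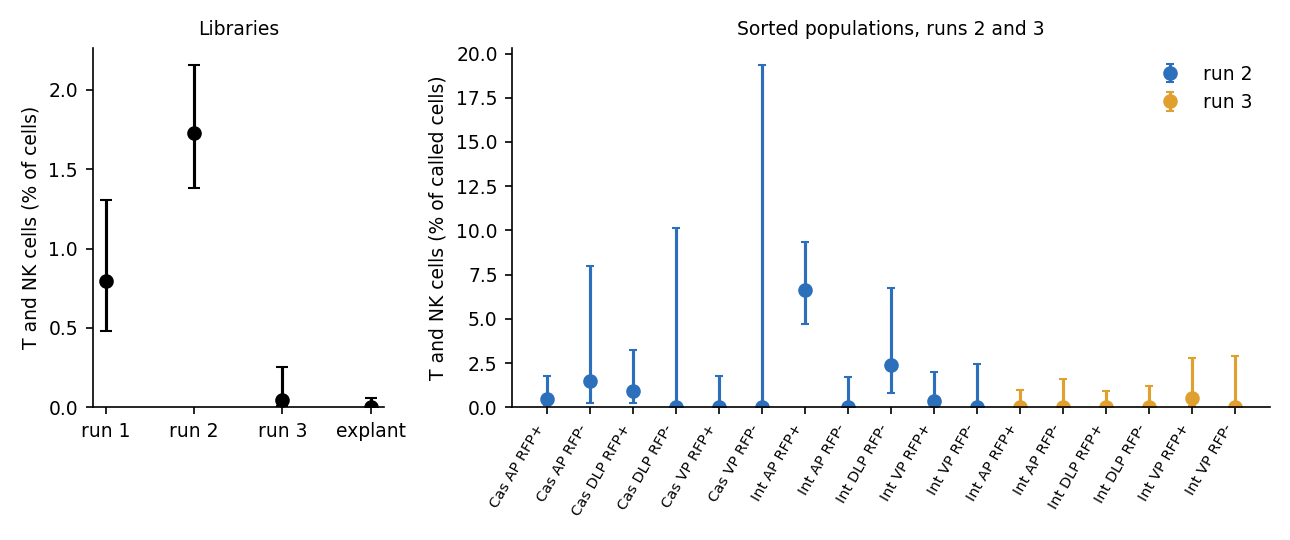
Share of T and NK cells, in percent, by library on the left and by sorted population of runs 2 and 3 on the right, where only cells with a barcode call are counted. Points are shares and bars are 95% Wilson intervals. Intact AP RFP+ cells of run 2, at 6.64%, have the highest share, with an interval that overlaps those of intact DLP RFP- and castrated AP RFP- cells and of small populations at 0.

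Among sorted populations, the share of T and NK cells was highest in intact AP RFP+ cells of run 2. They were 30 of 452 such cells, or 6.64% (4.69 to 9.32), and 0 of the 220 intact AP RFP- cells of the same run, which allows up to 1.36%. That AP RFP+ fraction held 168 myeloid cells, 37.2% of its cells. Intact DLP RFP- cells of run 2 held 3 of 126 (2.38%, 0.813 to 6.77), intact VP RFP+ cells 1 of 282, castrated AP RFP+ cells 2 of 410, castrated AP RFP- cells 1 of 67 (1.49%, 0.264 to 7.98) and castrated DLP RFP+ cells 2 of 223. The intervals of the DLP RFP- and castrated AP RFP- cells overlapped that of the intact AP RFP+ cells. In run 1 no T or NK cell had a barcode call, and the 466 AP RFP+ cells of that run, 30 of them myeloid, allow a share of up to 0.644%. In run 3 the single member was 1 of 198 VP RFP+ cells, and 388 AP RFP+ cells held none, which allows up to 0.773%. The 30 cells are thus 1 population of 1 pool of mice.

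RFP reports *Runx1* promoter activity and was set by the sort, not by the rule, so the share of T and NK cells could be compared between RFP- and RFP+ fractions over runs. Intact lobes with both fractions were weighted equally. These were AP and VP in runs 1 and 2 and all 3 lobes in run 3. The intact DLP RFP- cells of run 2, of which 3 of 126 were T or NK cells, thus did not enter. No T or NK cell of run 1 had a barcode call, so the run 1 difference could only be 0. RFP- minus RFP+ was 0 percentage points in run 1, -3.50 in run 2 and -0.17 in run 3, with a mean of -1.22. An exact two-sided sign-flip permutation test over the 3 runs gave p = 0.5, and the smallest p that 3 runs allow is 0.25, so that this design could not reach 0.05. In the lobes compared, the share was lower in RFP- cells in 2 of 3 runs, and without run 2 the mean difference was -0.084 points. Genes of RFP+ and RFP- T and NK cells could not be tested, since only 3 intact RFP- cells of this kind had a barcode call.

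Marker gates divided the 92 cells by receptor and co-receptor UMIs. Cells with a CD3 UMI were called CD4, CD8 or γδ by a UMI of *Cd4*, of *Cd8a* or *Cd8b1*, or, lacking all of these, of *Trdc*, *Tcrg-C1*, *Tcrg-C2* or *Tcrg-C4*, and cells with no CD3 UMI were called NK by *Ncr1*, *Klrb1c*, *Klre1* or *Eomes*. By these gates 19 cells were CD4 (20.7%, 13.6 to 30.02), 13 CD8 (14.1%, 8.45 to 22.7), 11 γδ (11.96%, 6.81 to 20.2) and 14 NK (15.2%, 9.29 to 23.9). A further 34 cells (37.0%) had CD3 UMIs and no co-receptor or γδ UMI, and 1 had *Nkg7* only. No cell had UMIs of both co-receptors. At a median of 3402 UMIs a missing co-receptor UMI does not show that the transcript was absent. CD3-only cells had a median of 2887 UMIs, the lowest of these gates, with *Trac* or Trbc UMIs in 29 of 34 cells.

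The shares of some gates differed between runs 1 and 2. Run 1 had 7 γδ, 5 NK, 1 CD8, 1 CD3-only and 1 Nkg7-only cells and 0 of 15 CD4 cells, which allows up to 20%. Run 2 had 19 CD4, 12 CD8, 3 γδ, 9 NK and 33 CD3-only cells of 76. The share of γδ-gate cells was 46.7% (24.8 to 69.9) in run 1 and 3.95% (1.35 to 10.97) in run 2, with intervals that did not overlap. The single cell of run 3 was a γδ-gate cell with 11934 UMIs, 1 *Epcam* UMI and 28 keratin UMIs.

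Genes mostly outside those that set each gate were distributed as follows. In the CD4 gate, *Trbc1* or *Trbc2*, the constant regions of the β chain, had a UMI in 19 of 19 cells, *Cd5* or *Cd6*, scavenger-family receptors that dampen antigen-receptor signals, in 17, and *Gzma* or *Gzmb* in 0. γ or δ constant regions were seen in 0 of these 19 cells. In the CD8 gate, 8 of 13 cells had UMIs of both *Cd8a* and *Cd8b1*, which are themselves the gate's genes. A granzyme A or B UMI was found in 8 of the 13 cells and a γ chain constant region UMI in 6. CD8-gate cells had the highest level of the chemokine *Ccl5* of the 5 larger gates, 3751 CPM (the gene's UMIs scaled to 1000000 UMIs of the gate), in 12 of 13 cells. The secretory luminal genes *Sbp*, *Spink1*, *Pbsn*, *Tgm4* and *Msmb* took 11.6% of the UMIs of the CD3-only gate. They took 0.366% of those of the CD8 gate, so CPM levels of the CD3-only gate are lowered by epithelial RNA. Epithelial cells, which should lack these genes, had a UMI of *Cd5* in 0.139%, of *Gzmb* in 0.0278% and of *Trbc2* in 1.75% of run 2 cells, at a median depth of 12129 UMIs against 3501 in the CD8 gate and 3270 in the CD4 gate.

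The γδ gate rests on a UMI of a γ or δ constant region and does not identify γδ T cells. All 11 γδ-gate cells had a γ chain UMI and 6 had *Trdc*, the δ constant region, at 460 CPM over the gate, and 11 of 11 also had a Trbc UMI and 4 a *Trac* UMI. Of the 11 cells, 7 had more αβ than γδ constant region UMIs, and 5 had 1 or 2 γδ UMIs beside 5 to 13 αβ UMIs. *Fcer1g* or *Tyrobp*, signalling adaptors of innate receptors, had a UMI in 7 of 11 γδ-gate and 14 of 14 NK-gate cells, 2 of 13 CD8-gate cells and 0 of 19 CD4-gate cells. In the NK gate *Xcl1*, a chemokine that attracts cross-presenting dendritic cells, was found in 14 of 14 cells, as was *Ncr1*, the gene of the activating receptor NKp46, which is itself one of the gate's genes. *Trac* was found in 0 of 14 and Trbc in 11 of 14 NK-gate cells. *Gzma* was at 2496 CPM in γδ-gate cells and 1814 CPM in NK-gate cells, from 2 and 4 cells respectively, and *Gzma* or *Gzmb* was found in 6 of 11 γδ-gate, 8 of 14 NK-gate and 8 of 13 CD8-gate cells. Sequences of *Trbc1* and *Trbc2*, of the Tcrg constant genes and of the Klra receptors are close to each other, so reads may be lost or split among them.

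**Figure D2:**
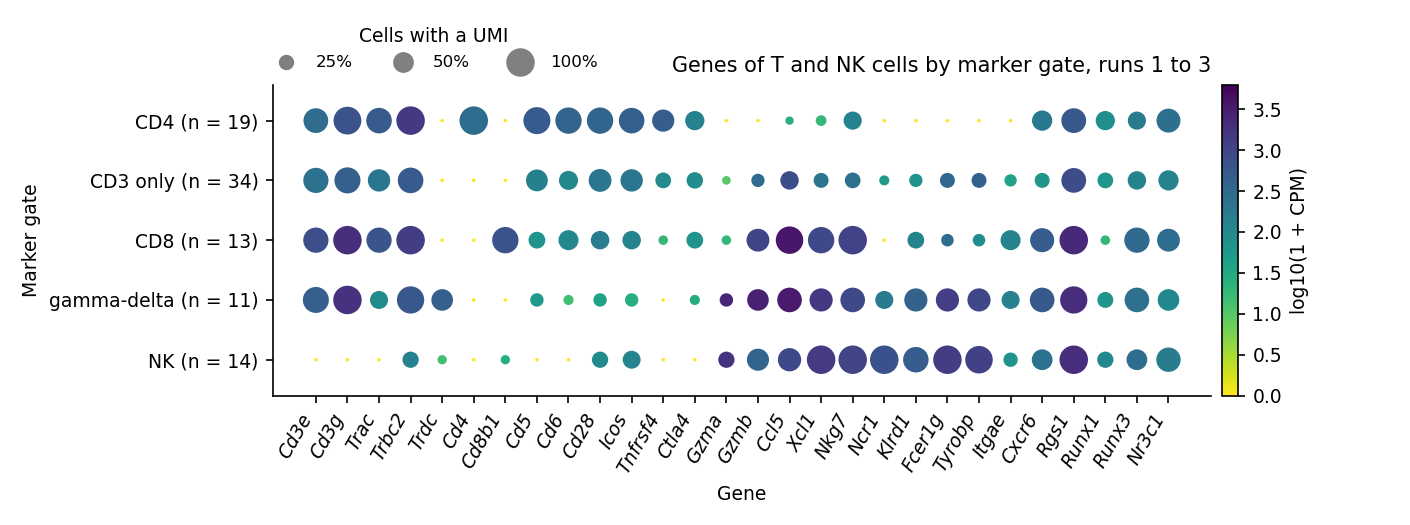
Genes of T and NK cells by marker gate, runs 1 to 3 together. Dot area is the share of cells with at least 1 UMI and colour is log10 of 1 plus CPM of the summed UMIs. In the CD3-only gate 11.6% of the summed UMIs were of secretory luminal genes, which lowers its CPM. Genes that define a gate (*Cd4*, *Cd8b1*, *Trdc*, *Ncr1* and the CD3 genes) are shown for orientation, and *Fcer1g* and *Tyrobp* are at 0 of 19 cells in the CD4 gate and at 14 and 13 of 14 in the NK gate.

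Helper and regulatory genes ranged from 0 to 46 of 92 cells. *Tnfrsf18* (GITR), a costimulatory receptor, had a UMI in 46 cells and *Ikzf2* (Helios) in 23, while epithelial cells of run 2 had a *Tnfrsf18* UMI in 2.31% of cells. *Foxp3* of regulatory T cells, and the type 2 and type 17 cytokines *Il4*, *Il5*, *Il13* and *Il17f*, had 0 UMIs in all 92 cells, which allows up to 3.26% of cells. *Il17a* had 1 UMI in each of 2 cells, both in run 1. *Ifng*, the type 1 cytokine, was found in 20 cells and *Tbx21*, the type 1 regulator T-bet, in 18. *Tnfrsf4* (OX40), a costimulatory receptor of activated cells, was found in 11 of 19 CD4-gate cells and 0 of 25 γδ- and NK-gate cells, and *Ctla4* in 8 of 19 CD4-gate cells. Epithelial cells of run 2 had a *Tnfrsf4* UMI in 0.529% of cells and an *Ifng* UMI in 0.0278%.

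Both residency and circulation genes varied widely in how many cells had a UMI. *Rgs1*, a regulator of G-protein signalling, had a UMI in 77 of 92 cells, *Rgs2* in 61, *Cxcr6* in 42 and *Cd69*, which holds cells in tissue by removing a lipid receptor from the surface, in 41. *Itgae*, the CD103 chain that binds E-cadherin on epithelium, was found in 18 cells and in 0 of 19 CD4-gate cells. *Zfp683*, also on the residency list, had 0 UMIs. Of the circulation list, *Klf2* was found in 33 cells, *Il7r*, the interleukin 7 receptor, in 26, *Tcf7* in 23, *S1pr1*, needed to leave tissue, in 8 and the lymph-node homing gene *Ccr7* in 5. Epithelial cells of run 2 had a UMI of *Cxcr6* in 0.0278% and of *Rgs1* in 1.09% of cells, but of *Rgs2* in 32.3%, so *Rgs2* does not separate the types.

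Genes of cell state were spread over the gates. The inhibitory receptor gene *Pdcd1* (PD-1) had a UMI in 14 of 92 cells, all in run 2, *Lag3* in 12, and *Tigit* and *Havcr2* in 3 each. *Stmn1*, a microtubule regulator high in dividing cells, had the most cells of 7 proliferation genes, 17 of 92, and *Mki67* was found in 7. The immediate early gene *Junb* was found in 91 of 92 cells at 2604 CPM, and *H2-K1* and *H2-D1*, the classical class I chains, in 92 of 92. Of the interferon response genes *Isg15* was found in 14 cells and *Ifit3* in 0.

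The sample barcode divided the lymphocytes of run 2 into a pair of nearly equal groups. Of 76 T and NK cells, 30 (39.5%, 29.2 to 50.7) carried the intact AP RFP+ barcode and 28 (36.8%, 26.9 to 48.1) had no barcode above its threshold, while 6 had more than 1, 3 were under the additional threshold and 9 carried another barcode. Epithelial cells of the run were AP RFP+ in 6.10% and without barcode in 25.4%, and myeloid cells in 42.2% and 11.6%. AP RFP+ barcode counts were 43 or more in the labelled lymphocytes, with a median of 60, and 4 to 30 in those without a barcode, with a median of 10, the value that defined the groups. In run 1, 14 of 15 T and NK cells had no barcode and 1 had several. The population of origin of a cell without a barcode is not known.

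Barcode group and gate went together in run 2. The CD4 gate was AP RFP+ in 13 of 19 cells (68.4%, 46.01 to 84.6) and without barcode in 2. Of the CD3-only cells, 17 of 33 were AP RFP+ and 9 had no barcode. The CD8 gate was AP RFP+ in 0 of 12 cells and without barcode in 10, and the NK gate in 0 of 9 and 5 of 9. Together the CD8, γδ and NK gates held 0 of 24 AP RFP+ cells (which allows up to 12.5%) and 17 of 24 cells without a barcode (70.8%, 50.8 to 85.1). These shares are of cells of 1 library, and no test over replicates was possible.

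**Figure D3:**
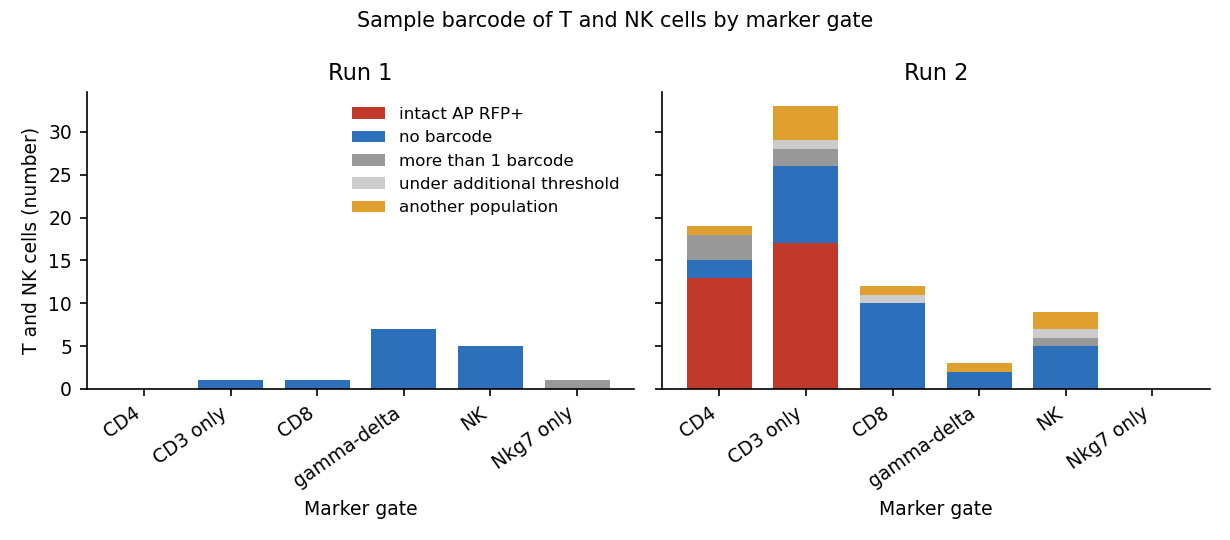
Number of T and NK cells in each marker gate, coloured by the sample barcode read on the cell, in run 1 (15 cells) and run 2 (76 cells). AP RFP+ cells are in the CD4 and CD3-only gates, and cells without a barcode make up most of the CD8 gate and all of the γδ and NK gates of run 1.

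Genes that the gates did not use divided the same way. *Cd5* or *Cd6* had a UMI in 30 of 30 AP RFP+ cells and 9 of 28 cells without a barcode, *Gzma* or *Gzmb* in 1 of 30 and 15 of 28, and *Fcer1g* or *Tyrobp* in 0 of 30 and 11 of 28. Median depths were 2775 and 3953.5 UMIs. With every cell thinned to 1600 UMIs, which kept all 92 cells, *Cd5* or *Cd6* was found in 26 of 30 and 6 of 28 cells, a granzyme in 0 of 30 and 12 of 28 and *Fcer1g* or *Tyrobp* in 0 of 30 and 9 of 28. The direction of each difference was therefore the same at equal depth. Among cells with a CD3 UMI, thus without the NK gate, 23 cells without a barcode remained, with *Cd5* or *Cd6* in 9, a granzyme in 11 and an adaptor in 6.

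Levels were then compared gene by gene between the summed UMIs of the AP RFP+ cells and of the cells without a barcode, with at least 2-fold in CPM as the line and genes of 20 or more UMIs counted. This is a description of 1 library, without a test. Over all genes, 299 of 2117 (14.1%) were at least 2-fold higher in AP RFP+ cells and 212 (10%) in cells without a barcode. Signalling and costimulation genes were higher in AP RFP+ cells in 6 of 11 and lower in 0, with a median log2 ratio of 1.08 against 0.24 over all genes. The 6 genes were *Lat*, *Cd2*, *Cd5*, *Cd6*, *Cd28* and *Icos*. *Cd5* had 76 UMIs in 27 of 30 AP RFP+ cells and 10 UMIs in 6 of 28 cells without a barcode, a level 9.62-fold higher in CPM. *Cd28*, the main costimulatory receptor, was found in 25 and 9 cells and *Icos*, an inducible relative of CD28, in 22 and 10, with levels 4.53-fold and 4.30-fold higher in AP RFP+ cells. *Lck*, the proximal kinase of the receptor, was found in 17 and 20 cells at a ratio of 1.20, and so did not share this difference.

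Killing genes were on the other side. Cytotoxic granule and chemokine genes were at least 2-fold lower in AP RFP+ cells in 7 of 7 (*Gzma*, *Gzmb*, *Nkg7*, *Ccl5*, *Fasl*, *Xcl1* and *Ctsw*, median log2 ratio -2.30), and NK receptors and adaptors in 6 of 6 (*Ncr1*, *Klrk1*, *Klrd1*, *Klrc2*, *Tyrobp* and *Fcer1g*, median -2.65). *Gzmb*, the protease that triggers apoptosis in the target cell, had 0 UMIs in AP RFP+ cells and 169 in 15 of 28 cells without a barcode, a ratio of at most 0.0225. *Xcl1* had 6 UMIs in 3 cells and 136 UMIs in 18 cells. *Ccl5* had 108 UMIs in 5 AP RFP+ cells, 95 of them in 1 cell, and 295 UMIs in 16 cells without a barcode. *Nkg7* is a rule gene, so its own difference only shows by which rule genes the 2 groups entered. *Runx3*, a regulator of CD8 and innate lymphocyte identity, had a UMI in 9 and 17 cells and CPM levels at a ratio of 0.920, or 0.541 without the cells over 10000 UMIs.

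Of other lists, *Tnfrsf4* and *Ctla4* were higher in AP RFP+ cells among 4 helper genes counted, *Tcf7* and *Klf2* among 3 circulation genes, and *Cxcr4*, *Itga4* and *Itgb2* among 4 homing genes. Of 4 residency genes counted, *Rgs1* was the 1 past 2-fold, with 99 UMIs in 21 AP RFP+ cells and 273 UMIs in 25 cells without a barcode (718 and 1565 CPM). Under 20 UMIs in all, *Itgae* was found in 0 of 30 AP RFP+ cells and 11 of 28 cells without a barcode, and *Itga1*, the CD49a chain, in 2 and 12, and *Cd160* in 0 and 8. *Cxcr6* (8 and 11 cells) and *Cd69* (12 and 12 cells) were at ratios of 0.935 and 1.40. Beyond the lists, *Hif1a*, the oxygen-regulated transcription factor, was among the 10 highest folds, with 66 UMIs in 20 AP RFP+ cells and 5 UMIs in 3 cells without a barcode. Among genes looked at only after their values were seen were *Rora* (23 and 8 cells), *Maf* (18 and 6), *Cd40lg* (9 and 1) and *Slamf6* (9 and 0), and on the other side *Cd7* (0 and 13). Others looked at in this way are not reported here.

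Cells with many UMIs weighed on these sums. Without the 2 AP RFP+ cells and the 3 cells without a barcode that had over 10000 UMIs, 97 of 1227 genes (7.91%) were at least 2-fold higher in AP RFP+ cells and 90 (7.33%) in cells without a barcode. Signalling genes were then higher in 5 of 11 (*Cd2* no longer, median log2 ratio 0.44 against 0.0037 over all genes), cytotoxic genes lower in 7 of 7 and NK genes in 3 of 3. The ratio of *Cd5* was 6.05, of *Cd28* 3.30 and of *Hif1a* 6.05, and that of *Tnfrsf4*, at 1.87, no longer reached 2-fold. *Ctla4* stayed higher among 4 helper genes counted, *Klf2* among 2 circulation genes and *Cxcr4* and *Itga4* among 3 homing genes. *Tcf7* and *Itgb2* were no longer called. Of genes that had been 2-fold higher, *Trac* and *Trbc2* were at ratios of 1.48 and 1.81, and no proliferation gene reached 20 UMIs. Within cells with a CD3 UMI, 309 of 1960 genes (15.8%) were higher in AP RFP+ cells and 174 (8.88%) in cells without a barcode. There 6 of 11 signalling genes were higher and 6 of 6 cytotoxic genes lower, the rule gene *Nkg7* among the latter. Only 2 NK receptor and adaptor genes, *Tyrobp* and *Fcer1g*, still reached 20 UMIs, and both were lower.

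Epithelial RNA differed between the same groups and stands beside every ratio above. The secretory luminal genes *Sbp*, *Spink1*, *Pbsn*, *Tgm4* and *Msmb* took 0.448% of the UMIs of AP RFP+ cells and 11.3% of those of cells without a barcode, with a range over cells up to 1.99% and 39.6%. Without the cells over 10000 UMIs the shares were 0.633% and 0.491%, and the medians per cell in all cells were 0.568% and 0.460%. *Epcam* had a UMI in 2 of 30 and 8 of 28 cells. Most of it lay in 1 cell without a barcode, of 48192 UMIs, which had 43 *Epcam* UMIs and 19085 secretory luminal UMIs. The values without the cells over 10000 UMIs, above, are those without this cell.

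In single cells, the signalling list summed to 1.85 to 10.2 UMIs per 1000 UMIs in AP RFP+ cells (median 5.59) and 0.0457 to 5.64 in cells without a barcode (median 2.79). The cytotoxic and NK receptor lists together summed to 0 to 37.1 (median 0.125) and 0 to 32.7 (median 8.94). Ranges overlapped on both measures, and 1 AP RFP+ cell in the CD3-only gate, at 37.1, was the highest of both groups on the second. Cells without a barcode in run 1 had medians of 2.31 and 13.5, near those of the run 2 cells without a barcode on the first measure and above them on the second. Of these 14 cells, 2 had *Cd5* or *Cd6*, 7 a granzyme and 11 an adaptor UMI.

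**Figure D4:**
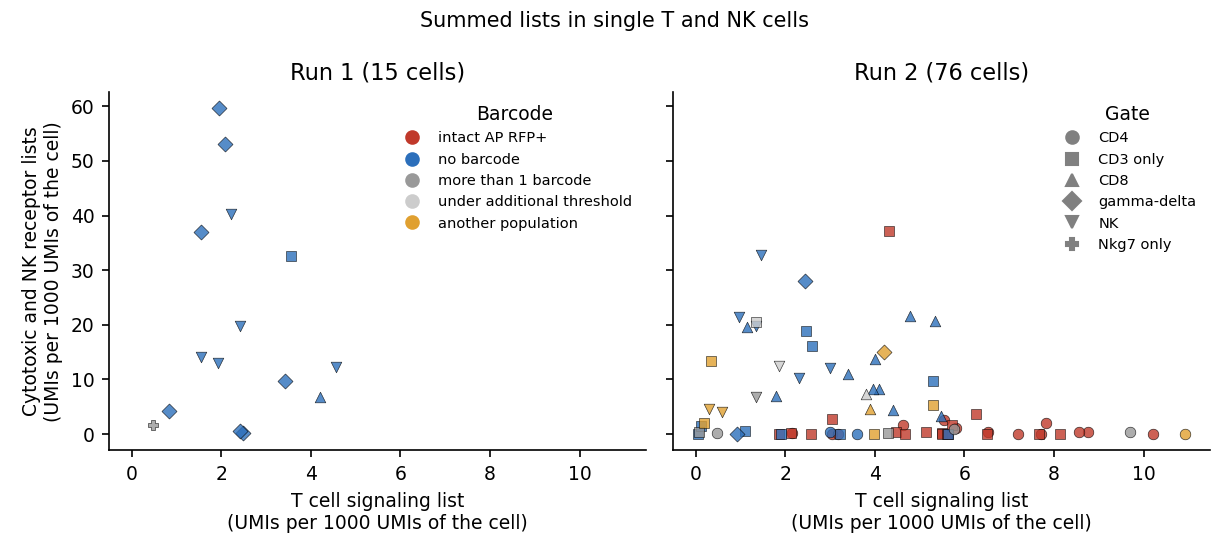
Each point is 1 T or NK cell, with the summed signalling and costimulation list on the horizontal axis and the summed cytotoxic and NK receptor lists on the vertical axis, both in UMIs per 1000 UMIs of the cell. Colour is the sample barcode and shape the marker gate. AP RFP+ cells lie along the bottom of run 2, apart from 1 cell at 37.1, and cells without a barcode spread upward in both runs.

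RUNX factors bind the core motif TGTGGT, and *Runx3* was among the transcripts of these cells, so promoters of list genes were read in the RefSeq annotation of GRCm38.p6. The windows run from 250 bases before to 50 bases after the annotated start, in the direction of the gene. Killing genes whose levels were at least 2-fold lower in AP RFP+ cells and the receptor gene *Cd3d* are shown as examples with and without the motif, and *Nkg7* and *Cd3d* are also rule genes. Capitals mark TGTGGT or its reverse complement ACCACA.
Gzmb (chr14:56262285-56262584, minus strand): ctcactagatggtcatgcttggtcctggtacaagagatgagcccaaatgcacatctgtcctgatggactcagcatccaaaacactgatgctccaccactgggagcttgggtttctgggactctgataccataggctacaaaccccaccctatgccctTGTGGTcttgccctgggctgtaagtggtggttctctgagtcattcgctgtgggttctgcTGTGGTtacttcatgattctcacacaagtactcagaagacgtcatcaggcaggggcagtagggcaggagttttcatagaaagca
Nkg7 (chr7:43436888-43437187, plus strand): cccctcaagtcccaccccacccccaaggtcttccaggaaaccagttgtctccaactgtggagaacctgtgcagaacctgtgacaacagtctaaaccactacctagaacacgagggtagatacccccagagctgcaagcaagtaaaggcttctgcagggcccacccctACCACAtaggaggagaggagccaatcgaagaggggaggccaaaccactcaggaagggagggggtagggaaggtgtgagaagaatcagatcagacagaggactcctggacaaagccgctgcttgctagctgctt
Xcl1 (chr1:164935473-164935772, minus strand): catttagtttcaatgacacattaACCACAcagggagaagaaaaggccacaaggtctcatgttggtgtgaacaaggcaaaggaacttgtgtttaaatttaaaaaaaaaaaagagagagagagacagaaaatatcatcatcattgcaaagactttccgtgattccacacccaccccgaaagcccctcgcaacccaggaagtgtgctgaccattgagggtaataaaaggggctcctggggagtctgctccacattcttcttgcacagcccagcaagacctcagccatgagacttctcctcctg
Cd3d (chr9:44981536-44981835, plus strand): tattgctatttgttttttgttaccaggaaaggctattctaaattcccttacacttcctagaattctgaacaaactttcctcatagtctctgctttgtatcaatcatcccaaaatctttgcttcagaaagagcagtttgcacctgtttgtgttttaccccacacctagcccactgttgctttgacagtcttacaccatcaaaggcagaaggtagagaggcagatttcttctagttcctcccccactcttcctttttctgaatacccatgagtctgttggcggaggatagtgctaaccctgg

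By this search on both strands, *Gzmb* held 2 copies, *Nkg7* and *Xcl1* 1 each and *Cd3d* none. Windows were at hand for 9 of 12 cytotoxic genes, of which 7 held the motif (*Gzma*, *Gzmb*, *Gzmc*, *Prf1*, *Nkg7*, *Ccl3* and *Xcl1*), and for 11 of 13 NK receptor genes, of which 7 did. For signalling genes it was 4 of 8 (*Lck*, *Zap70*, *Lat* and *Ptpn22*) and for receptor and CD3 genes 0 of 4. Over all genes with a window, 5113 of 27025 (18.9%) held it. Other lists were also above that share, with 3 of 4 checkpoint, 3 of 4 RUNX family, 3 of 7 homing and 2 of 5 residency genes. Helper genes held it in 4 of 15 and circulation genes in 1 of 4. Of 8 immediate early and heat shock genes with a window, 0 did. The same was true of 5 proliferation, 5 interferon response, 4 class I, 2 steroid receptor and 1 co-receptor genes. A match of 6 letters is a description of the window and not a binding site, and a window without one says nothing of sites elsewhere.

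Myeloid cells of the same runs gave a second reference, passed through the same sort and pooled in the same libraries. The rule chose the 2 types on the same UMIs, so the contrast describes them and tests nothing. In run 1, 1069 of 5944 genes (18%) were at least 2-fold higher in T and NK cells and 857 (14.4%) in myeloid cells, and in run 2, 1127 of 9836 (11.5%) and 1517 (15.4%). With an upper limit of 7500 UMIs the run 1 counts were 434 and 587, and with cells thinned to 2000 UMIs 282 and 415, so the larger side in run 1 turned to myeloid cells. Of the genes at the limits used, 260 were higher in T and NK cells in both runs. The receptor, CD3 and *Nkg7* genes among them were set by the rule.

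Cytotoxic genes were higher in T and NK cells in 6 of 8 in run 1 and 7 of 9 in run 2. *Gzmb* was at 2060 CPM in run 1 and 417 CPM in run 2, with 0 UMIs in 121 and 398 myeloid cells. *Ccl5* was 23.9-fold higher in run 1 and 35.2-fold in run 2. *Ccl3* went the other way, with ratios of 0.174 and 0.0279, and *Ccl4* was at 0.895 and 0.185. *Fcer1g*, found in 80% and 25% of T and NK cells and in 97.5% and 87.2% of myeloid cells, was at ratios of 1.08 and 0.778. *Tyrobp*, at ratios of 0.484 and 0.454, was over 2-fold lower than in myeloid cells in both runs.

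Residency genes were higher in T and NK cells in 5 of 5 in run 1 and 5 of 6 in run 2. *Cxcr6* was at 647 and 150 CPM in T and NK cells with 0 UMIs in myeloid cells, ratios of at least 242 and 235 for this chemokine receptor. *Rgs1* was 4.59-fold and 4.21-fold higher and *Cd69* 7.98-fold and 7.45-fold. *Itgae* differed between the runs, at ratios of 4.68 and 0.860. Homing receptors were mixed, with *Ccr2*, which draws monocytes from blood, lower in T and NK cells in both runs.

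**Figure D5:**
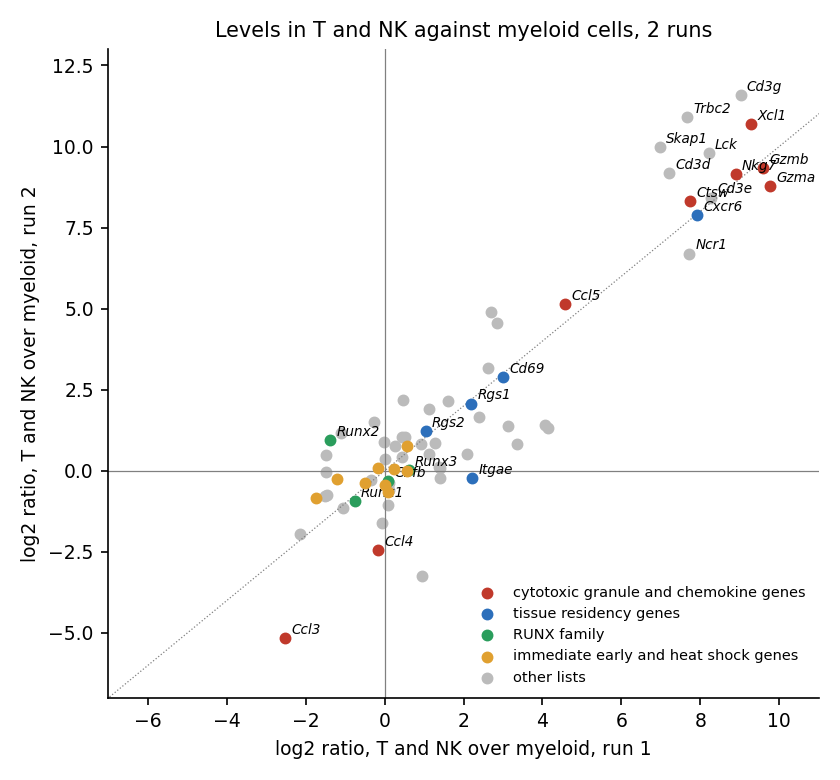
Log2 ratio of the level in T and NK cells to the level in myeloid cells, run 1 on the horizontal and run 2 on the vertical axis, for 71 list genes with 20 or more UMIs in both runs. Where myeloid cells had 0 UMIs the ratio is a lower bound at 3 counts, and the dotted line marks equal ratios. *Ccl3* is below 0 in both runs, and *Runx1*, *Runx3* and *Cbfb* lie between -1 and 1 in both runs.

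Of 4 RUNX genes, 0 were at least 2-fold higher in T and NK cells in either run, and *Runx2*, with 1 UMI in T and NK cells, was lower in run 1. *Runx1* was at 83.8 CPM (95% Poisson interval 33.7 to 173) and 73.0 CPM (50.6 to 102) in T and NK cells of runs 1 and 2, 141 and 139 CPM in myeloid cells and 59.0 and 72.2 CPM in epithelial cells. The interval of T and NK cells held the epithelial level in both runs, and in run 2 their interval lay below the myeloid one (129 to 150). Epithelial RNA was not removed from these sums, and its part in the run 2 level was not tested. *Runx3* was at 168 (91.7 to 281) and 193 CPM (155 to 238), against 109 and 189 CPM in myeloid cells and 0.100 and 0.519 CPM in epithelial cells. A *Runx1* UMI was found in 7 of 30 AP RFP+ cells and 5 of 28 cells without a barcode, with 50.8 CPM and 51.6 CPM. By gate, *Runx1* was found in 8 of 19 CD4, 1 of 13 CD8, 3 of 11 γδ and 4 of 14 NK cells and *Runx3* in 7, 10, 8 and 7.

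*Nr3c1*, the glucocorticoid receptor, had a UMI in 53 of 92 cells. It was at 132 CPM (65.8 to 236) and 178 CPM (142 to 221) in T and NK cells of runs 1 and 2, against 60.5 and 47.8 CPM in myeloid and 49.1 and 28.1 CPM in epithelial cells. *Esr1* had 1 UMI in 1 cell and *Pgr* 0.

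Castrated mice gave 5 T and NK cells with a barcode call, all in run 2, against 34 from intact mice of that run. Of the 5 cells, 3 had 2287 to 2900 UMIs, 1 had 22576 UMIs with 20 *Epcam* and 38 keratin UMIs, and 1 NK-gate cell had 19961 UMIs with 42 proliferation UMIs. At least 2-fold higher in castrated cells were 118 of 1480 genes (7.97%), and 311 (21%) were higher in intact cells. With an upper limit of 7500 UMIs the counts were 121 and 94, and by the mean over cells of log-normalized values 102 and 49, so the larger side turned to castrated cells. With the lobes found in both treatments weighted equally they were 175 and 280, and the larger side stayed with intact cells. The class II genes *H2-Ab1*, *Cd74* and *H2-Aa*, which present antigen to CD4 cells, had 209, 473 and 124 UMIs in castrated cells and 1, 5 and 2 in intact cells. All of the castrated UMIs lay in 2 cells, the *Epcam*-rich cell of 22576 UMIs (78, 188 and 45) and the NK-gate cell of 19961 UMIs (131, 285 and 79), which had 1 and 4 myeloid marker UMIs, and the other 3 cells had 0. *Trac* had 2 and 84 UMIs and *Cd5* 2 and 80. Of the 34 intact cells 30 were from AP RFP+, and the 5 castrated cells were from 3 populations, AP among them. With so few cells, treatment and sorted population cannot be told apart here.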

How the data were processed

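Droplet 3' single-cell libraries were analysed from 3 runs of sorted adult prostate cells and 1 run of urogenital sinus explants. The authors aligned and counted the reads with Cell Ranger 3.1.0 on mm10 (GRCm38), per their processing notes, and deposited raw UMI counts per gene and cell with MULTI-seq barcode counts per cell, without normalization. Seurat 3.1.5 is also named there. Here cells with 750 to 7500 genes and under 10% mitochondrial UMIs were kept. The study's methods name 7500 UMIs as the upper limit, and this was run as an alternative. Barcodes were called with the thresholds of the methods. These matrices held 32781033, 82505976 and 37711505 UMIs in adult runs 1 to 3 and 112281485 in the explant run, within the limits.

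Counts were summed per group of cells with Python 3.11.15, numpy 2.4.6, pandas 2.3.3 and scipy 1.17.1, scaled to CPM and compared as ratios. A gene was counted with 20 or more UMIs over both groups and called at 2-fold. A group at 0 was set to 3 counts, which makes its ratio a bound. With 1 library per group no p-value was computed for genes. Shares have Wilson intervals and levels exact Poisson intervals. A share with a count of 0 has its limit at 3 counts of the total in the text and its Wilson interval in the plot. The comparison was tested on simulated data. Runs are separate preparations from pooled animals, so their spread holds preparation and animals together. No doublet caller was run. Alternatives left out cells with Epcam UMIs or over 10000 UMIs, and thinned cells.

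The members and the gene lists were chosen with earlier results of these data known. Named genes are those of the lists and the 10 highest folds in each direction. Rora, Maf, Cd40lg, Slamf6 and Cd7 are the reported part of a longer set of genes chosen after their values were seen. Of 9 tissue residency genes, 8 were in the matrix. The limits on gates and promoters stand in the text. Promoter windows were taken from RefSeq tables of GRCm38.p6. Results for some genes of the lists are not reported here.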

Additional observations from a re-analysis of the deposited data

How the results depend on the processing

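Under the alternatives run, 171 values stayed and 33 moved. A share stayed if within the Wilson interval of the reported one, and a count if within 1.5-fold of it. The difference between RFP- and RFP+ fractions was judged by its sign alone, which did not change. Its size ranged from -0.084 to -2.54 points, with -1.22 as reported. The balance of higher and lower counts did turn in the 2 comparisons given below. With CD3 genes alone the share of T and NK cells was 0.476% in run 1 and 0.867% over all runs, and the NK gate, which holds cells without a CD3 UMI, was at 0. Without cells that had an Epcam UMI it was 1.36% in run 2 and 0.832% over all runs. With an upper limit of 7500 UMIs it was 2.11% in run 1, 4.41% in run 2 and 2.96% over all runs.

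Leaving out each run in turn gave a share of 0.387% to 1.45% over the rest (1.08% with all) and a barcode call in 6.25% to 51.9% of T and NK cells (43.5% with all). The CD4 gate then ranged from 0% to 24.7%, the CD8 gate from 6.25% to 15.6%, the γδ gate from 5.19% to 50%, the NK gate from 11.7% to 31.25% and the CD3-only gate from 6.25% to 42.9%. The low CD4 and CD8 values and the high γδ and NK values are those without run 2. Genes higher in T and NK than in myeloid cells ranged from 260 in both runs to 1127 where 1 of these runs was left out and the other alone counted.

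Of genes at least 2-fold higher in T and NK than in myeloid cells, run 1 had 434 with 7500 UMIs as the limit and 282 with cells thinned to 2000 UMIs, and run 2 had 661 when thinned. Genes higher in myeloid cells of run 1 were 587 with 7500 UMIs as the limit and 415 when thinned, so that the larger side turned from T and NK to myeloid cells. Fewer genes reach 20 UMIs in thinned cells. Genes higher in intact than in castrated cells were 94 with 7500 UMIs as the limit, which left fewer cells, and 49 by the mean over cells of log-normalized values, beside 121 and 102 higher in castrated cells, so that the larger side turned from intact to castrated.

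The following alternatives on barcode groups of run 2 were chosen after seeing the data. With cells thinned to 1600 UMIs, Cd5 or Cd6 was found in 86.7% of AP RFP+ cells and Gzma or Gzmb in 0% (1 cell before). Genes higher in AP RFP+ cells were 97 without cells over 10000 UMIs, 199 without cells of 5 or more Epcam UMIs and 161 without any Epcam UMI, and genes higher in cells without a barcode were 90, 135 and 104. No paired analysis was possible because only 3 intact RFP- T and NK cells had a barcode call, all in run 2. The gene test of RFP+ against RFP- cells and its 6 alternatives, the replicate block among them, were not run for the same reason. Depth limits every absent UMI, since a T or NK cell had a median of 3402 UMIs.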

Other observations

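*Cd3e* UMIs were also found in epithelial cells, without *Ptprc* and with at least 1 *Epcam* UMI. A *Cd3e* UMI was present in 46 of 1493 such cells in run 1 (3.08%, 95% Wilson interval 2.32 to 4.09), 173 of 3591 in run 2 (4.82%, 4.16 to 5.57), 145 of 2144 in run 3 (6.76%, 5.78 to 7.91) and 59 of 6375 in the explants (0.925%, 0.718 to 1.19). The other CD3 genes were not found at these shares. *Cd3d* had a UMI in 0, 3 and 1 of these adult cells by run and *Cd3g* in 0, 8 and 6, while run 3, with 1 T or NK cell in all, had the highest *Cd3e* share. A single epithelial cell of run 3 had 13 *Cd3e* UMIs.

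By sorted population, *Cd3e* was found in 24 of 219 intact AP RFP+ epithelial cells of run 2 (10.96%, 7.48 to 15.8) and 3 of 203 AP RFP- cells (1.48%, 0.504 to 4.25), with median depths of 9407 and 20609 UMIs. In run 3 it was found in 44 of 378 AP RFP+ cells (11.6%, 8.79 to 15.3) and 15 of 218 AP RFP- cells (6.88%, 4.21 to 11.04), at 9241 and 7808.5 UMIs. In run 1 the shares were 4.02% and 3.45%, with intervals that overlapped, as did those of run 3. The source of these UMIs was not tested.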
